A study of Mus musculus with 16 samples.

Results

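Dbp, Nr1d1 and Bhlhe40 are transcription factor genes that the circadian clock drives in most mouse tissues. They were measured here in kidney and liver as 3 of 9669 genes, and were chosen with earlier results of these data known. Only probes that carry their symbol and no other were used. Each has 1 such probe. In kidney, the RNA of Dbp was 15.5-fold lower and that of Nr1d1 8.25-fold lower than in liver, whereas that of Bhlhe40 was 4.12-fold higher. Each of the 16 arrays gave the same direction for each of the 3 genes.

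The samples were the left kidney and the dorsal lobe of the liver of 3 wildtype males of the inbred strain C3HeB/FeJ, aged 105 ± 5 days and bred free of specified pathogens. Every array held the RNA of 1 organ of 1 mouse in one colour and a pool of the opposite organ from 5 animals in the other. The kidneys of mice 1, 2 and 3 were set against the liver pool on 3, 3 and 1 arrays ("kidney arrays"), and the livers of the same mice against the kidney pool on 3 arrays each ("liver arrays"). Repeated arrays of an organ of a mouse share its RNA and are not further mice, and the pools give no estimate of spread. The hour of collection and the feeding state are not given in the sources used here, so the time of day that the values stand for is unknown.

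In the mammalian clock, CLOCK and BMAL1 bind E-box sequences and switch on their own repressors together with output genes, and the products feed back so that the RNA levels rise and fall each day. Dbp encodes a PAR bZIP activator that binds D-box sequences and controls enzymes of metabolism and detoxification in liver and kidney. Nr1d1 encodes the nuclear receptor REV-ERBα, which binds heme and represses Bmal1 and genes of lipid metabolism. Bhlhe40 encodes DEC1, a basic helix-loop-helix repressor that binds E-boxes and thereby acts against CLOCK and BMAL1, and it also responds to low oxygen. In bulk tissue, fewer cells of a type and less RNA per cell cannot be told apart.

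The promoters of Dbp and Nr1d1, both known clock targets, are shown, since the source used here held no promoter window for Bhlhe40. Whether these sequences bear on the organ difference was not tested. RefSeq on build GRCm38.p6 gives 250 bases before and 50 bases from the start of transcription, for Dbp at chr7:45704997-45705296 on the plus strand and for Nr1d1 at chr11:98775328-98775627 on the minus strand. Each is written 5′ to 3′ along its gene. Capitals mark matches on either strand to the general E-box CANNTG or to the E-box variant CACGTT.
Dbp: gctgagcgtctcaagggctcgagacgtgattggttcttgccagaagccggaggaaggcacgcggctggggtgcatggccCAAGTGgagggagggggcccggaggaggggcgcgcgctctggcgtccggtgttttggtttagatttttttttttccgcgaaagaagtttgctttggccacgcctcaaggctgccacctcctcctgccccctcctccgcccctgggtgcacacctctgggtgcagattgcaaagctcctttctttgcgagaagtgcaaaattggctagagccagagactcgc
Nr1d1: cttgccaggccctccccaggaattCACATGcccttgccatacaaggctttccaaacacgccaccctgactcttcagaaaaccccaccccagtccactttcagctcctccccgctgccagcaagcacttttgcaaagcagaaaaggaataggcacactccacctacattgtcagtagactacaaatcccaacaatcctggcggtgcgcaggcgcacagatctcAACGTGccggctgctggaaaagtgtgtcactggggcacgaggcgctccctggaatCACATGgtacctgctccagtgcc
The Dbp window holds 1 CANNTG, which begins 171 bases before the start site. The Nr1d1 window holds 2 CANNTG matches, which begin 226 bases before and 27 bases after the start site, and 1 CACGTT, on the opposite strand, 28 bases before it. Neither window holds CACGTG, the canonical form and a case of CANNTG, or the D-box TTATGTAA. Among all 32851 RefSeq windows of this kind, 72.3% hold CANNTG, 7.2% CACGTG, 4.7% CACGTT and 0.9% TTATGTAA. These are matches of letters in a short window and say nothing of binding elsewhere. Bhlhe40 lies on chromosome 6.

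All values are log2 ratios as the authors deposited them, turned to kidney over liver, so a negative value means less RNA in kidney. The labels do not say which channel was on top, while in the titles the pool comes second. Albumin (Alb), a liver transcript, averaged 8.44 on the kidney arrays as deposited, and -7.57 on the liver arrays. The kidney transcript Kap had -5.77 and 6.08. The ratios were therefore read as pool over single mouse, which opposes the order of the titles. Read in title order, every kidney and liver word below would be exchanged, and so would higher and lower between mice, with the same sizes and tests. The organs' defining markers were measured as well. Turned to kidney over liver, 7 of 7 measured hepatocyte genes were higher in liver (median -7.70), and 5 of 5 proximal tubule genes (median 5.16) and 3 of 3 genes of the distal nephron and collecting duct (median 3.87) were higher in kidney. Alb is among the 7 and Kap among the 5, and the direction of both was set by the reading of the ratios. Of markers of neighbouring tissue, 0 of 4 adrenal and 0 of 3 pancreatic genes passed, and neither did the endothelial gene Emcn (0.72). Of 2 adipocyte genes, Fabp4 was higher in kidney (1.54) and Adipoq, at -0.72, did not pass. Of 6 blood and leukocyte genes, Tyrobp (-2.92) and Cd79b (-1.22) were higher in liver, and the other 4 lay between -0.83 and 0.26. These counts are for values as deposited. With mouse as a replicate block, as described below, Cd79b lost its call (limma, adjusted p = 0.129). Tyrobp and Fabp4 kept theirs. Under scalings described below, centred and aligned by signal, the endothelial gene Emcn passed as higher in kidney (1.18 and 0.85). The pancreatic gene Cela2a then passed as higher in liver (-0.56 and -0.52), and the leukocyte gene Cd74 as higher in kidney when centred only (0.71). The part of these markers in the results for the 3 clock genes was not tested.

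Between 15480 and 19432 of the 20419 probes had a value on an array. The arrays of mouse 2 stand apart. Per the labels, ratios were set to a median of 1, but the medians of its 6 arrays as kidney over liver lay between -1.49 and -1.19, against at most 0.00267 from 0 on the other 10. This shift was not even. On probes with strong signal, taken as those whose exact values rarely recur on an array, the median of mouse 2 minus mice 1 and 3 was -0.234 for kidney arrays and -0.346 for liver arrays, while on dim probes it was -1.55 and -1.43. A large organ ratio can also fail to recur for being rare, so a bright probe need not be an intense one. None of the values of Dbp and Nr1d1 and 10% of those of Bhlhe40 recurred, which places all 3 genes among the 2967 bright probes. For the 3 genes, the organ differences and the tests between mice are given with and without mouse 2 below. Correlations and the values of other named genes are given with mouse 2 included.

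Dbp had the larger organ difference of the pair that was low in kidney. On the kidney arrays its log2 ratio was -3.62, -3.61 and -3.75 for mouse 1, -4.19, -3.39 and -4.68 for mouse 2 and -5.34 on the single array of mouse 3. On the liver arrays it was -3.07, -2.92 and -3.53 for mouse 1, -3.61, -4.44 and -4.08 for mouse 2 and -3.00, -4.09 and -3.28 for mouse 3. The lowest ratio was thus the only kidney array of mouse 3, and the ranges of both kinds of arrays overlapped. Averaged per mouse, the kidney arrays gave -4.36 ± 0.88 and the liver arrays -3.56 ± 0.44 (SD, n = 3 mice each). The organ difference was -3.96 (SE 0.28, 95% interval -4.60 to -3.32, limma, adjusted p = 4.11e-05), which is 15.5-fold lower in kidney with an interval of 9.97-fold to 24.2-fold.

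Nr1d1 was low in kidney and, as deposited, had the smallest spread of the 3 genes. On the kidney arrays it was at -2.91, -2.89 and -3.24 for mouse 1, -3.27, -3.10 and -2.93 for mouse 2 and -3.49 for mouse 3. The liver arrays gave -2.96, -2.98 and -2.75 for mouse 1, -2.64, -2.57 and -2.74 for mouse 2 and -3.00, -3.21 and -3.14 for mouse 3. All 16 values lay between -3.49 and -2.57. The averages were -3.20 ± 0.25 on kidney arrays and -2.89 ± 0.23 on liver arrays (SD, n = 3 mice each). The organ difference was -3.04 (SE 0.21, 95% interval -3.52 to -2.57, limma, adjusted p = 3.50e-05), or 8.25-fold lower in kidney (5.92-fold to 11.5-fold). The ratio of Dbp lay below that of Nr1d1 on 15 of 16 arrays and in 6 of 6 averages per mouse and organ, and Dbp minus Nr1d1 averaged -0.91 ± 0.62 (SD, n = 6 averages). This compares organ differences of 2 probes and not their RNA levels. The order of the genes by spread turned with the scaling. After centring, the SE of the organ difference was 0.29 for Nr1d1 and 0.16 for Bhlhe40. With mouse 2 aligned by signal, it was 0.14 for Nr1d1 and 0.13 for Bhlhe40.

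Bhlhe40 went the other way. Its kidney arrays read 3.00, 2.47 and 2.05 for mouse 1, 1.75, 1.15 and 1.61 for mouse 2 and 2.17 for mouse 3. Its liver arrays read 2.52, 2.71 and 2.02 for mouse 1, 1.47, 1.54 and 1.67 for mouse 2 and 1.78, 2.18 and 2.36 for mouse 3. All 16 values were positive, and those of mouse 2 were the lowest on both kinds of arrays. The averages were 2.06 ± 0.51 on kidney arrays and 2.03 ± 0.43 on liver arrays (SD, n = 3 mice each). The organ difference was 2.04 (SE 0.24, 95% interval 1.50 to 2.59, limma, adjusted p = 0.000756), or 4.12-fold higher in kidney (2.82-fold to 6.03-fold).

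**Figure D1:**
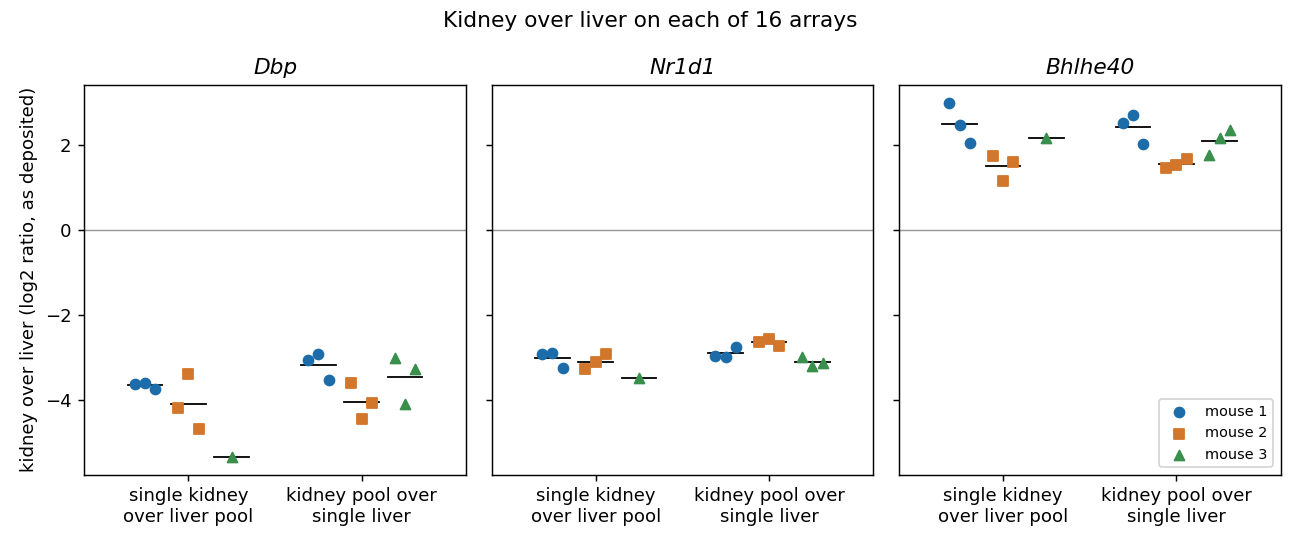
Log2 ratio of kidney over liver as deposited for Dbp, Nr1d1 and Bhlhe40 on the 7 kidney arrays (left in each panel) and the 9 liver arrays (right). Points are arrays, coloured and shaped by mouse, and bars are the mean of a mouse. Dbp lies between -5.34 and -2.92, Nr1d1 between -3.49 and -2.57 and Bhlhe40 between 1.15 and 3.00.

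Of all 18670 probes tested, 12.6% passed for kidney against liver, 5.18% as higher in kidney and 7.45% as higher in liver (limma, Benjamini-Hochberg adjusted p under 0.05). All 3 genes passed, Bhlhe40 as 1 of 967 probes higher in kidney and Dbp and Nr1d1 among 1391 higher in liver. By size, Dbp ranked 117 and Nr1d1 193 of the 14701 probes with a ratio below 0, and Bhlhe40 250 of the 3969 above 0. A larger size in the same direction was found for 0.621%, 1.03% and 1.33% of all probes. Kidney and liver of the same mouse entered this fit as independent values, although they deviated together. With mouse as a replicate block in the scale of single mouse over pool, the estimates were the same but the SE was 0.50 for each gene. The adjusted p was then 3.14e-11 for Dbp, 4.35e-07 for Nr1d1 and 0.00209 for Bhlhe40 (limma), while 966 probes passed in place of 2358. The SEs are nearly equal because limma drew each variance close to a value common to all probes. These p-values thus hardly reflect the spread of a gene over its own mice. Without mouse 2 the differences were -3.91 for Dbp, -3.13 for Nr1d1 and 2.30 for Bhlhe40.

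The 2 kinds of arrays use different RNA on each side. The kidney arrays minus the liver arrays differed by -0.80 for Dbp (SE 0.56, 95% interval -2.09 to 0.48), by -0.31 for Nr1d1 (SE 0.42, interval -1.27 to 0.64) and by 0.03 for Bhlhe40 (SE 0.48, interval -1.06 to 1.13). None passed (limma, adjusted p = 1.00 each), and the same test called 0 of 18670 probes, with 46 at an unadjusted p under 0.05. That fit takes the 6 averages as independent, while this contrast lies within mice. Mouse by mouse the kidney arrays minus the liver arrays of mice 1, 2 and 3 gave -0.49, -0.04 and -1.88 for Dbp. They gave -0.11, -0.45 and -0.38 for Nr1d1, and 0.09, -0.06 and 0.06 for Bhlhe40. Dbp and Nr1d1 were thus lower on the kidney arrays in each mouse. With mouse as a block, chosen after seeing the data, the SE was 0.31, 0.17 and 0.17, and the intervals were -1.51 to -0.10 for Dbp, -0.71 to 0.08 for Nr1d1 and -0.35 to 0.41 for Bhlhe40. The adjusted p was 0.597, 0.640 and 0.969 (limma), with 12 of 18508 probes called (0.0648%).

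A cDNA probe binds RNA of either strand of its locus. In RefSeq on GRCm38.p6, Dbp shares bases with Sphk2, which encodes a sphingosine kinase, Nr1d1 with Thra, which encodes a thyroid hormone receptor, and Bhlhe40 with the long noncoding RNA gene 0610040F04Rik. The probe sequences were not used here, so how far a probe reads its neighbour is uncertain. Sphk2 was itself measured at 1.44 (SE 0.20, limma, adjusted p = 0.00162), higher in kidney and thus opposite to Dbp. Thra was not among the genes tested, and the noncoding RNA has no probe of its own.

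With values as deposited, none of the other measured clock genes passed between the organs. Of 27 other clock genes listed, 13 had a tested probe and 0 passed, against 14.4% of all 9047 genes tested (5.56% higher in kidney, 8.88% higher in liver). With 13 genes, 0 is not far from that share. Dbp, Nr1d1 and Bhlhe40 were chosen with earlier results known, so their contrast to the 13 is a description. The median of the 13 was -0.27 and that of all genes -0.48. After every array was centred, these medians were 0.19 and -0.01. A small value is therefore read against the median of all genes. Of the values of these 13 genes, 20% (Nr1d2 and Hlf) to 60% (Cry1 and Cry2) recurred, more than for Dbp, Nr1d1 and Bhlhe40. By this measure their signal was weaker. Large ratios also recur less for being rare, so the measure cannot tell weak signal from a small ratio. The part of signal in the contrasts below was not tested.

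The paralog of Nr1d1 had no organ difference that passed. Nr1d2, which encodes REV-ERBβ, was at -0.02 (SE 0.23), with arrays between -0.79 and 1.07. Rora, an activator at the same DNA elements, was at -0.41 (SE 0.20). No array of Nr1d2 reached the range of Nr1d1.

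The other PAR bZIP factors, which bind the same D-box as Dbp, did not pass either. Tef was at -0.27 (SE 0.23, arrays -1.14 to 0.47) and Hlf at -0.53 (SE 0.27, arrays -1.66 to 0.16). Nfil3, a repressor at D-boxes, was at -0.83 (SE 0.41) with arrays spread between -2.47 and 1.58. The range of Tef and of Hlf lay above every array of Dbp.

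Among repressors of CLOCK and BMAL1, Per1 was at 0.26 (SE 0.21), Cry1 at -0.75 (SE 0.30) and Cry2 at -0.02 (SE 0.26). Every Per1 array, at most 0.60, lay below the lowest Bhlhe40 array. The kinases and other regulators of clock proteins gave -0.60 for Csnk1e (SE 0.29), -0.77 for Btrc (SE 0.34), -0.01 for Csnk2a1 (SE 0.20), 0.26 for Gsk3b (SE 0.23) and -0.08 for Prkaa1 (SE 0.27). After centring every array, Cry2 (0.43), Gsk3b (0.72) and Prkaa1 (0.38) passed as higher in kidney, and 3 genes did with mouse 2 aligned by signal. These 3 of 13 stand beside 19.5% of all genes that were higher in kidney centred and 20.4% aligned. The core genes Clock, Bmal1, Per2 and Per3 and the Bhlhe40 paralog Bhlhe41 had no tested probe and were not analysed here.

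**Figure D2:**
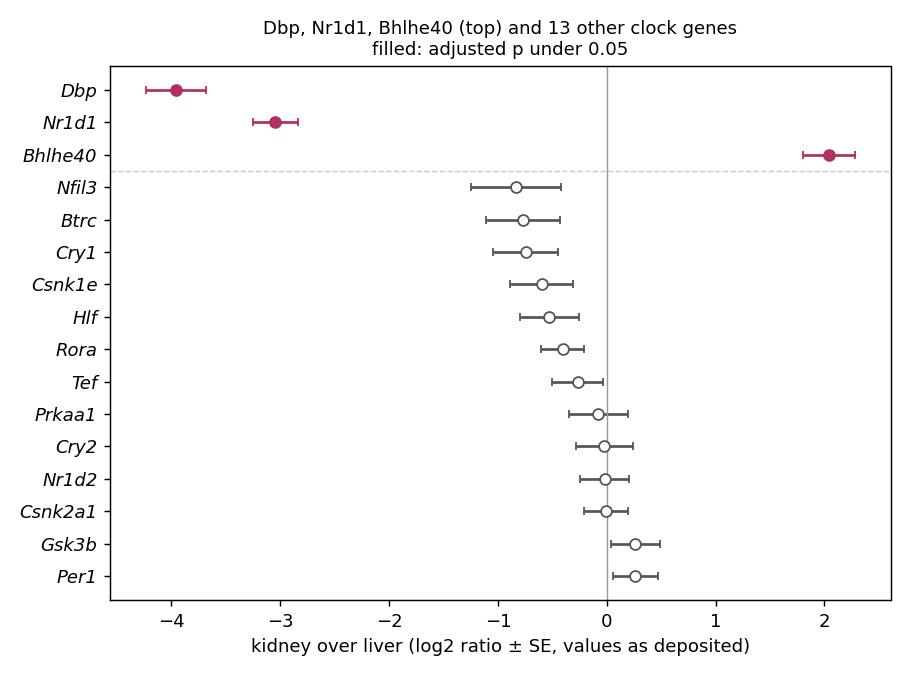
Organ difference as log2 ratio of kidney over liver with its SE (6 averages of a mouse and organ) for Dbp, Nr1d1 and Bhlhe40 and, under the dashed line, for the 13 other measured clock genes ordered by value. Filled points passed at an adjusted p under 0.05 with values as deposited, and only Dbp (-3.96), Nr1d1 (-3.04) and Bhlhe40 (2.04) are filled.

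Transcripts known from the literature to cycle in mouse liver or kidney went both ways. Of 31 listed, 18 were tested, 3 passed as higher in kidney and 4 as higher in liver, with a median of -0.52, beside 5.56% and 8.88% of all genes. After centring the numbers were 7 and 4, where 19.5% and 12.4% of all genes passed, and with mouse 2 aligned 7 and 5, where 20.4% and 17% did. Higher in kidney were the water channel Aqp2 (2.86), the co-chaperone Fkbp5 (0.95) and the tubulin Tuba4a (0.79). Higher in liver were Upp2, a uridine phosphorylase (-2.29), the carboxylesterase Ces2a (-1.44), the chaperone Hsp90aa1 (-1.44) and the phosphatidate phosphatase Lpin1 (-1.25). These 7 are named after their values were seen. With mouse as a replicate block, Aqp2, Upp2 and Ces2a kept their calls. Fkbp5, Tuba4a, Hsp90aa1 and Lpin1 lost theirs (limma, adjusted p = 0.228, 0.294, 0.0811 and 0.0712). Of the PAR bZIP and E-box relatives, 7 of 11 were tested and only Mlx, a partner of glucose-sensing factors, passed (0.81, higher in kidney), which is 1 gene in 7 where 14.4% of all genes passed. Mlx lost its call with mouse as a replicate block (limma, adjusted p = 0.285).

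Whether the mice differed was asked on the scale of single mouse over pool, where a mouse with more of a transcript in both organs is high on both of its kinds of arrays. Kidney and liver of a mouse were weighted equally, so the opposite shifts of mouse 2 cancel. For Dbp the kidneys of mice 1, 2 and 3 averaged -3.66, -4.09 and -5.34 against the liver pool, and their livers 3.17, 4.04 and 3.46 against the kidney pool. Mouse 3 was lowest for Dbp in kidney, on 1 array. In liver the place of mouse 2 turned with the scaling, since its Dbp mean was 4.04 as deposited and 3.77 aligned by signal, above the livers of mice 1 and 3, but 2.71 centred, below them. For Nr1d1 the kidneys averaged -3.01, -3.10 and -3.49 and the livers 2.90, 2.65 and 3.11. For Bhlhe40 the kidneys averaged 2.51, 1.50 and 2.17 and the livers -2.42, -1.56 and -2.11.

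No difference shared by both organs of a mouse passed for these genes. With mice 1 and 3 alone, where 0.174% of 13816 probes passed, the adjusted p was 0.423 for Dbp, 0.814 for Nr1d1 and 0.986 for Bhlhe40 (limma). With all mice and arrays centred, the adjusted p was 0.233 for Dbp, 0.587 for Nr1d1 and 0.972 for Bhlhe40 (limma), and 0.533% of 13512 probes passed. For Dbp, mouse 1 minus mouse 3 was 0.70 (95% interval 0.05 to 1.35) and mouse 2 minus mouse 3 was 0.94 (0.29 to 1.59), both of which use the lone kidney array of mouse 3. Mouse 1 minus mouse 2 was -0.24 (-0.77 to 0.29). For Nr1d1 the 3 differences lay between -0.02 and 0.15, with intervals inside -0.28 to 0.39, and for Bhlhe40 between -0.04 and 0.06, with intervals inside -0.49 to 0.47. The intervals of Nr1d1 are the narrowest. In the same test over genes, 85 of 7072 passed (1.2%), and the lowest adjusted p belonged to Sec14l2 (2.93e-05), Selenos (2.93e-05), Cnbp (8.33e-05), Nfrkb (0.000304), Cyhr1 (0.000468) and Pxdn (0.000667). None of the 13 tested clock genes and none of the 16 tested cycling transcripts passed in it, with Hspa8 (0.0781), Upp2 (0.126) and Usp2 (0.305) the lowest of the second list and Hes1 (0.0701), Usf2 (0.496) and Tef (0.540) the lowest of the relatives. For Sec14l2 and Cyhr1, mouse 1 minus mouse 3 was 2.09 and 1.43, and mouse 1 minus mouse 2 was 0.14 and -0.20. Both thus set mouse 3 apart and use its lone kidney array.

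Within an organ, the result depended on mouse 2. Mice 1 and 3 alone need no correction. In kidney, mouse 1 minus mouse 3 was 1.69 for Dbp (SE 0.23), 0.48 for Nr1d1 (SE 0.26) and 0.34 for Bhlhe40 (SE 0.40), with adjusted p of 0.125, 0.521 and 0.767 (limma) and 0.0208% of 14453 probes passing. In liver the differences were -0.29, -0.22 and -0.31, with adjusted p of 0.601, 0.399 and 0.457 (limma) and 1.31% of 17259 probes passing. So no difference between these mice passed within an organ. The difference of kidney and liver in this contrast was 1.97 for Dbp (SE 0.47, limma, adjusted p = 0.0337), where 7.67% of 13816 probes passed. It was 0.70 for Nr1d1 and 0.66 for Bhlhe40, with adjusted p of 0.131 and 0.416 (limma). The value of Dbp rests on the single kidney array of mouse 3.

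With mouse 2 included and arrays centred, the kidneys differed for Dbp (adjusted p = 0.00499) and Nr1d1 (0.000376) and not for Bhlhe40 (0.227), while 49.9% of 14215 probes passed (limma). The livers differed for Nr1d1 (1.85e-05) and Bhlhe40 (0.0329) and not for Dbp (0.152), while 42.1% of 16759 probes passed (limma). These shares are so high that passing says little of a single gene, and Bhlhe40 in liver lost its call (adjusted p 0.0509 to 0.0970) when any of 5 arrays of mice 2 and 3 was left out. Centring moved Nr1d1 in the kidney of mouse 2 to -1.73, where the deposited mean was -3.10, and in its liver to 1.31, where the deposited mean was 2.65.

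As deposited, the kidney test gave an adjusted p of 0.0133 for Dbp, 0.288 for Nr1d1 and 0.0189 for Bhlhe40 (limma, 73.9% of probes passing). The liver test gave 0.0547, 0.0263 and 0.00978 in the same order (86.6% passing). With mouse 2 aligned by signal, they were 0.0487, 0.199 and 0.150 in kidney (34.8% passing) and 0.274, 0.00807 and 0.255 in liver (34.9% passing). Dbp in kidney and Nr1d1 in liver thus passed under all 3 scalings. Nr1d1 in the liver of mouse 2 was 1.31 centred, 2.65 as deposited and 2.38 aligned, below the 2.90 of mouse 1 and the 3.11 of mouse 3 each time. The difference of kidney and liver in their mouse differences passed for each of the 3 genes with mouse 2 included, where 65.1% of 13512 probes did so centred, 88.3% as deposited and 56.9% aligned (limma). A difference between mice and one between the handling of their arrays cannot be told apart.

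**Figure D3:**
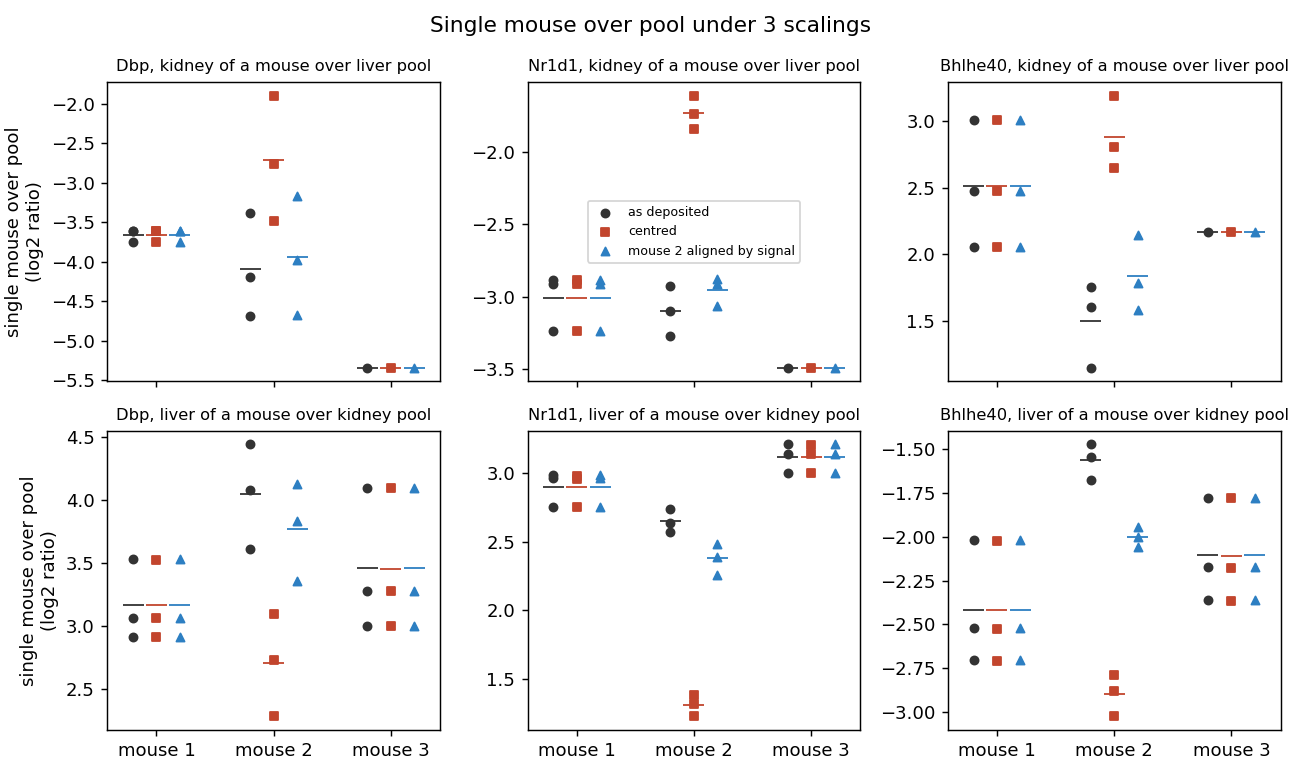
Log2 ratio of single mouse over pool for each gene (columns) in kidney (upper row) and liver (lower row), by mouse, as deposited (black circles), centred on the array's median (red squares) and with mouse 2 aligned by signal (blue triangles). Points are arrays and bars are means, and each panel has its own axis. The 3 scalings coincide for mice 1 and 3 and part for mouse 2, where Nr1d1 in liver averages 2.65, 1.31 and 2.38.

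Since the shift of mouse 2 varied with signal, the genes were also set beside bright probes of like organ ratio (within 0.5 in mice 1 and 3), as a description without a test. On the liver arrays Dbp in mouse 2 differed from mice 1 and 3 by -0.73 as kidney over liver, where 82 such probes had a median of 0.03 and quartiles of -0.38 and 0.32. This value lies below their lower quartile. On the kidney arrays Dbp differed by -0.01, inside the quartiles of 52 probes. Nr1d1 in mouse 2 differed by 0.36 on the liver arrays, above the upper quartile of 0.29 of 101 probes, and by 0.03 on the kidney arrays, inside the quartiles of 90. Bhlhe40 differed by -0.92 on the kidney arrays and by -0.70 on the liver arrays, where the medians of 204 and 231 probes were -0.75 and -0.92. The low values of Bhlhe40 in mouse 2 were thus within the quartiles of probes like it.

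**Figure D4:**
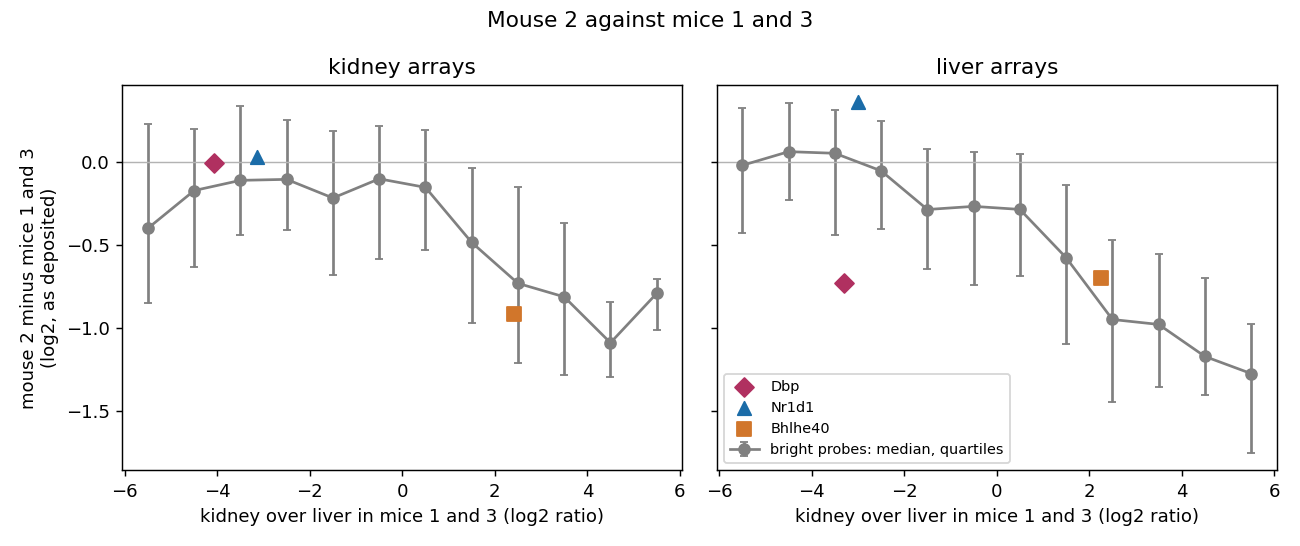
Mouse 2 minus the mean of mice 1 and 3, as deposited log2 ratio of kidney over liver, against the ratio in mice 1 and 3, on kidney arrays (left) and liver arrays (right). Grey points and bars are the median and quartiles of bright probes in bins of the ratio, and coloured symbols are the 3 genes. Dbp on the liver arrays (-0.73) lies below the grey bars, and Bhlhe40 (-0.92 and -0.70) lies inside them.

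Across the 16 arrays, the 3 genes followed one another only loosely. Pearson's r of kidney over liver centred per array was 0.67 between Dbp and Nr1d1, 0.44 between Dbp and Bhlhe40 and 0.68 between Nr1d1 and Bhlhe40. As deposited it was 0.25, 0.28 and -0.19. The arrays share mice, pools and the shift of mouse 2, so these are descriptions. Among 5222 genes with a value on all 16 arrays, those most like Dbp after centring were Arg1 (r = 0.851), Mrap (0.850), Sema4g (0.842), Dlst (0.827) and Pcgf2 (0.822), and for these r was between 0.489 and 0.764 as deposited. Most like Nr1d1 were Prdx1 (0.985), Hsdl1 (0.983), Gnb1 (0.981), Aqp6 (0.981) and Nova2 (0.980), with 0.753 to 0.840 as deposited. Most like Bhlhe40 were Prelp (0.853), Gad1 (0.853), Tmed4 (0.850), Rnmt (0.849) and Ssr1 (0.843), with 0.798 to 0.903 as deposited but -0.21 to 0.33 with mouse 2 aligned by signal. The likeness thus follows how mouse 2 was scaled, above all for Bhlhe40.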

How the data were processed

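Kidney and liver RNA of 3 mice was measured on 16 cDNA arrays with 2 colours. Per the labels, 20 µg of total RNA was labelled indirectly, slides were scanned with a GenePix 4000A, and GenePix Pro 3.0 gave mean intensities minus background, whose ratios were set to a median of 1. The authors deposited log ratios. Their base was read from the deposited values as log2, since 140 of 144 spacings from an array's commonest value were those of ratios of small whole numbers within 1e-04, against 0 for the natural log and 16 for log10. The dye of each sample is not given in the sources used here.

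Of the probes, 11723 have 1 gene symbol in the platform annotation, 806 several and 7890 none, and 11590 of the first matched a RefSeq gene. Probes of a gene were averaged for gene values. For kidney over liver, repeated arrays were first averaged. The 6 averages entered limma 3.58.1 (R 4.3.3) together with the array kind, for probes measured in 2 or more mice of each organ. For mice, single arrays were centred on their median and limma's moderated F was used. Such tests separate RNA samples beyond the error of hybridisation, not groups of mice. "Aligned by signal" moves mouse 2 onto mice 1 and 3 of the same array kind within classes of the recurrence of values. Two-sided p-values were adjusted by Benjamini-Hochberg at 0.05 over all probes, or over all genes for gene values. The number of arrays limits the precision. Scripts were tested on simulated data, and matplotlib 3.10.9 drew the figures.

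Per the labels, a mouse number marks the same animal in both organs. Over 14688 probes the deviations of a mouse from the others, as single mouse over pool, correlated between its organs at -0.591, -0.795 and -0.585 for mice 1, 2 and 3. For mice 1 and 3 the others include mouse 2, whose arrays are shifted in opposite directions on this scale. The part of that shift in these 3 values was not tested, so they do not describe each animal by itself.

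The genes and lists were chosen with earlier results of these data known. Named were each probe of the 3 genes, each measured clock gene, the 3 genes of each other list and the 6 of all genes with the lowest p for the shared mouse difference, the 5 genes most correlated with each of the 3, and Alb and Kap.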

Additional observations from a re-analysis of the deposited data

Results flagged for a closer look

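The difference between mice was not the same in kidney and liver for all 3 genes when arrays were centred, by a test of the interaction of mouse and organ (limma, single mouse over pool, 16 arrays). The adjusted p was 0.000663 for Dbp, 6.17e-09 for Nr1d1 and 0.0144 for Bhlhe40, and 65.1% of 13512 probes passed the same test. As deposited it was 0.00735, 0.0178 and 0.000519, and with mouse 2 aligned by signal 0.0285, 0.00149 and 0.0407. Without mouse 2 it was 0.0337 for Dbp, 0.131 for Nr1d1 and 0.416 for Bhlhe40, with 7.67% of 13816 probes passing. Mouse 2 and the shift of its arrays cannot be told apart. No array stood apart from its kind for any of the 3 genes by Dixon's criterion. That criterion took the 7 kidney and 9 liver arrays as independent values, although they repeat the same mice. Differences between mice widen the range, so an array that deviates can be missed.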

How the results depend on the processing

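In each of the 11 alternatives Dbp and Nr1d1 stayed lower and Bhlhe40 higher in kidney with a call, with log2 ratios of -4.36 to -3.51, -3.20 to -2.59 and 1.83 to 2.50. Leaving out 1 mouse in both organs gave -4.23 to -3.74, -3.13 to -2.91 and 1.83 to 2.30. The replicate block left the estimates at -3.96, -3.04 and 2.04. The 2358 probes called became 5445 after centring, 6522 with mouse 2 aligned, 966 with the replicate block, 774 on kidney arrays alone, 1543 on liver arrays alone, 4141 with duplicateCorrelation and 700 to 4873 without 1 mouse. Higher in kidney and in liver were 967 and 1391, but 3328 and 2117 after centring, 3531 and 2991 aligned, 427 and 539 with the block, 1242 and 2899 with duplicateCorrelation and 1506 and 1360 with trend and robust variances.

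Between kidneys, Nr1d1 lost its call as deposited (adjusted p 0.288) and aligned (0.199), and Bhlhe40 gained one as deposited (0.0189). Between livers, Bhlhe40 lost its call when aligned (0.255), and 7055 probes called became 14516 as deposited. Without 1 mouse, adjusted p in kidney ranged over 0.00591 to 0.125 for Dbp, 0.000408 to 0.521 for Nr1d1 and 0.0728 to 0.767 for Bhlhe40, with 3 to 7962 probes called. In liver it ranged over 0.105 to 0.601, 0.000171 to 0.399 and 0.0141 to 0.457, with 226 to 6555. The highest of each is without mouse 2. For the difference shared by both organs it ranged over 0.273 to 0.638, 0.499 to 0.955 and 0.902 to 0.986, with 22 to 37 probes in place of 72, and for the difference between organs over 0.00192 to 0.0337, 1.29e-07 to 0.131 and 0.00375 to 0.416, with 1060 to 9682. Without 1 hybridisation, Bhlhe40 in liver lost its call without hybridisation 2d (0.0574), 2e (0.0786), 2f (0.0970), 3b (0.0668) or 3c (0.0509), no other call of the 3 genes changed, and the 72 probes became 46 without 1f and 26 without 3a, the lone kidney array of mouse 3. Fewer mice are left in such fits, and otherwise the cause was not tested. Between kidney and liver arrays 0 probes called became 12 with mouse as a replicate block. The mice differ in the number of kidney arrays, and 3 mice limit every organ comparison.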

Other observations

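Genes that respond to glucocorticoids, feeding and low oxygen were listed because Dbp, Nr1d1 and Bhlhe40 can respond to such signals. Whether such signals had a part in the values of these 3 genes was not tested. Organ differences are kidney over liver on the log2 scale, where 14.4% of all genes passed, and genes are named after their values were seen unless given for the shared mouse difference. Of 13 tested glucocorticoid responsive genes, Fkbp5 was higher in kidney (0.95) and Tat, a tyrosine aminotransferase, higher in liver (-6.80), with a median of -0.62. These counts, 1 in each direction, became 3 in kidney and 1 in liver after centring and 4 and 1 with mouse 2 aligned. Of 10 genes of fasting and feeding, the malic enzyme Me1 was higher in kidney (2.08), and 4 genes of fatty acid synthesis were higher in liver, namely Scd1 (-4.10), Fasn (-2.33), Elovl6 (-1.61) and Acaca (-1.02). Of 12 genes of the hypoxia list, 3 were higher in kidney, namely Ndrg1 (5.69), the glucose transporter Slc2a1 (1.19) and the glycolytic enzyme Pgk1 (1.12). The other 9 did not pass. No gene was higher in liver. The kidney count was 5 centred and 7 aligned. With mouse as a replicate block, Fkbp5, Acaca, Slc2a1 and Pgk1 lost their calls (limma, adjusted p = 0.228, 0.189, 0.0961 and 0.126). Tat, Me1, Scd1, Fasn, Elovl6 and Ndrg1 kept theirs. Of 10 immediate early genes 0 passed, with a median of -0.50, but Klf6 was higher in kidney after centring (1.03) and aligned (1.06), and Fosb (-0.75) and Junb (-0.50) were higher in liver when aligned. The share of all genes was 5.56% in kidney and 8.88% in liver, against 19.5% and 12.4% centred and 20.4% and 17% aligned.

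No gene of these lists passed for a difference between mice shared by both organs, where 1.2% of genes did (limma). The lowest adjusted p were 0.190 for Per1, 0.243 for Tat and 0.259 for Gadd45g among glucocorticoid responsive genes, and 0.171 for Elovl6, 0.235 for Fasn and 0.441 for Acaca among those of feeding. They were 0.270 for P4ha1, 0.306 for Vegfa and 0.337 for Ddit4 in the hypoxia list. Among immediate early genes they were 0.0680 for Ier2, 0.240 for Zfp36 and 0.248 for Atf3.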
